A study of Homo sapiens with 6 samples.

Results

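Secreted ligands of the vascular endothelial growth factor (VEGF), platelet-derived growth factor (PDGF) and angiopoietin-like and angiopoietin families were compared between SW480 cells with and without ZEB1 knockdown. The group was defined by gene symbol as VEGFA, VEGFB, VEGFC, PGF, PDGFA, PDGFB, PDGFC, PDGFD, ANGPTL4 and ANGPT2. Of these 10 genes, 8 had a row among the 32029 genes listed, whereas VEGFC and PDGFD had none and were not analysed here. SW480 is a human colorectal adenocarcinoma cell line, and ZEB1 is a zinc-finger repressor that silences epithelial genes. RNA was sequenced from 3 libraries of SW480 cells labelled wild type, transfected with the control siRNA siNC and 3 libraries of SW480 cells with ZEB1 knockdown by siZEB1, with 48 h between transfection and RNA isolation. The comparison asks which transcripts change when ZEB1 is lowered. All 6 libraries come from 1 cell line grown without other cells, so the receptors of these ligands on vessels and stroma are outside the experiment. By the study's methods the 3 libraries of a group are biological replicates.

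VEGF ligands act on receptor tyrosine kinases of endothelial cells, where VEGFA drives vessel sprouting and permeability, PGF binds FLT1, and VEGFB, which also binds FLT1, is linked to fatty acid uptake by tissues. PDGF chains pair into dimers that act on PDGFRA and PDGFRB of mesenchymal and mural cells, which coat and stabilise vessels. ANGPTL4 is secreted and inhibits lipoprotein lipase, and ANGPT2 is a ligand of the receptor TEK that loosens vessel walls when VEGF is present. In colorectal tumours the cancer cells are a main source of VEGFA, the target of anti-angiogenic antibody treatment.

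The deposited values are whole-number reads per gene, and they summed to between 19040636 and 22357633 per library. Levels are given as CPM, counts relative to the library size after TMM scaling, as mean ± SD with n = 3 libraries per group. Fold changes are log2 of siZEB1 over siNC with their standard error (SE), and a gene was called at an adjusted p under 0.05 in edgeR's two-sided quasi-likelihood test over 14996 genes. ZEB1 itself was at 58.6, 57.0 and 47.1 CPM in siNC and at 7.20, 6.86 and 8.46 CPM in siZEB1, and its log2 fold change was -2.85 (SE 0.11). The SW480 label was checked against 9 genes of colorectal epithelium, whose summed level was 4814 to 5438 CPM in siNC and 5330 to 6002 CPM in siZEB1. Most of this sum was KRT8 at 3455 and KRT18 at 1418 CPM in siNC, neither of which was called, while EPCAM (54.7 to 454 CPM), VIL1 (4.08 to 20.7 CPM) and KRT19 (72.3 to 223 CPM) were called higher and CDX2 (103 to 41.8 CPM) lower in siZEB1. The part of these markers in the changes of the ligands was not tested. KRT20, LGALS4 and CDH17, markers of differentiated intestinal cells, were each under 1 CPM on average in both groups. Summed markers of endothelium lay between 9.59 and 10.5 CPM in siNC and between 9.98 and 12.1 CPM in siZEB1, those of mural cells and fibroblasts between 14.3 and 15.8 CPM and between 14.8 and 17.1 CPM, and those of macrophages under 2 CPM in every library. The first 2 sums were carried by ESAM (6.78 CPM in siNC and 8.28 CPM in siZEB1, groups apart, not called) and PECAM1 (1.43 and 1.29 CPM) for endothelium and by COL1A1 (10.2 and 8.70 CPM) and PDGFRB (3.98 and 5.33 CPM) for mural cells and fibroblasts. In the same lists CLDN5 (endothelium), LUM and THY1 (fibroblasts) and CD68 (macrophages) were each under 0.1 CPM on average in both groups. As these are bulk samples, fewer cells with a transcript and less of it per cell cannot be told apart.

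The ligands did not move in 1 direction with ZEB1 knockdown. VEGFA and PDGFB were higher in siZEB1, whereas VEGFB, PDGFA, PDGFC and ANGPTL4 were lower and PGF and ANGPT2 were not called. All 8 ligands with a row passed the filter on low counts, and 6 of the 8 were called. Over all genes tested, 40.2% were called, 19% as higher and 21.2% as lower in siZEB1. The 3 libraries of siZEB1 lay wholly above those of siNC for 2 ligands and wholly below them for 4, and 49.5% of all genes tested had groups that did not overlap in either direction. The median log2 fold change of the 8 ligands was -0.30, beside -0.0055 over all genes tested, for which the middle part of the distribution between the 25th and 75th percentiles ran from -0.27 to 0.23. With 40.2% of all genes called, a call by itself was common, and the share of 6 in 8 ligands was not tested against it, so the account below is of which ligands moved, in which direction and by how much.

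**Figure D1:**
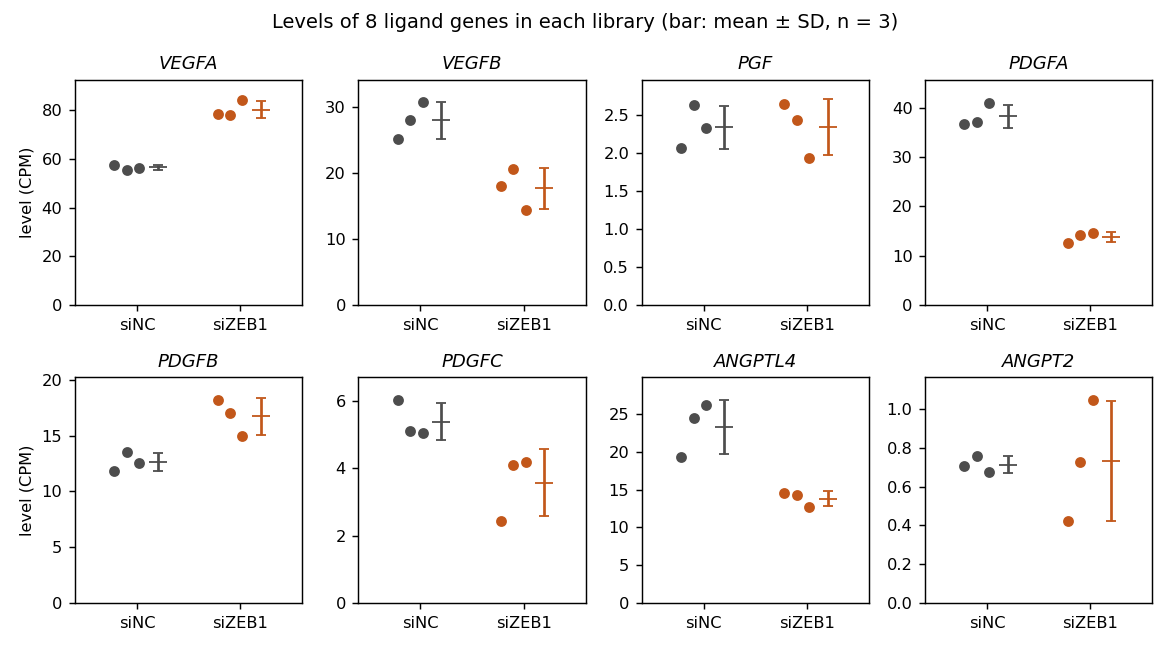
Level of each ligand in CPM (vertical axes, from 0, 1 scale per gene) in the 3 siNC and 3 siZEB1 libraries, with points for libraries and bars for the mean ± SD. The groups are apart for VEGFA and PDGFB (siZEB1 above) and for VEGFB, PDGFA, PDGFC and ANGPTL4 (siZEB1 below), and overlap for PGF and ANGPT2.

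Among the VEGF ligands, VEGFA and VEGFB moved in opposite directions. VEGFA (chromosome 6 from 43770184 to 43786487, plus strand) was at 57.6, 55.6 and 56.3 CPM in siNC and at 78.6, 77.8 and 84.2 CPM in siZEB1. Every siZEB1 library was above every siNC library, and the siNC libraries differed from each other by little. Its mean rose from 56.5 ± 0.999 CPM (SD, n = 3) by 42.0% to reach 80.2 ± 3.48 CPM (SD, n = 3). This was a log2 fold change of 0.51 (SE 0.066, edgeR adjusted p = 1.09e-05). The count is over the whole gene, so the splice forms of VEGFA that differ in heparin binding cannot be told apart.

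VEGFB (chromosome 11 from 64234538 to 64238793, plus strand), whose product binds FLT1 and NRP1, was at 25.2, 28.1 and 30.8 CPM in siNC. In siZEB1 it was at 18.1, 20.6 and 14.4 CPM, so the highest siZEB1 library was below the lowest siNC library. The mean fell from 28.0 ± 2.80 CPM (SD, n = 3) to 17.7 ± 3.16 CPM (SD, n = 3), a log2 fold change of -0.66 (SE 0.11, edgeR adjusted p = 0.000188). PGF, placental growth factor (chromosome 14 from 74941834 to 74955784, minus strand), was low in both groups, at 2.07, 2.63 and 2.33 CPM in siNC and 2.65, 2.44 and 1.93 CPM in siZEB1. Its groups overlapped, and the log2 fold change was -0.0050 with a 95% confidence interval from -0.44 to 0.43 (edgeR adjusted p = 0.988). A change of PGF smaller than that interval was not detectable with 37 to 59 reads per library.

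PDGFA showed the largest change of the 8 ligands. It codes for the PDGF A chain, which acts through PDGFRA, and lies on chromosome 7 from 497258 to 520296, minus strand. Its level was 36.7, 37.1 and 40.9 CPM in siNC and 12.7, 14.2 and 14.6 CPM in siZEB1. The libraries of the groups were far apart, with the highest siZEB1 library below all 3 siNC libraries. The mean fell from 38.2 ± 2.29 CPM (SD, n = 3) to 13.8 ± 1.03 CPM (SD, n = 3), a change of -63.8% and a log2 fold change of -1.47 (SE 0.088, edgeR adjusted p = 1.32e-09). Of all genes tested, 98.2% had a smaller absolute log2 fold change, and 0.847% had a lower signed one.

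PDGFB, the B chain, which binds both PDGF receptors and recruits pericytes to vessels, moved the other way. It lies on chromosome 22 from 39223359 to 39244751, minus strand, and was at 11.9, 13.5 and 12.5 CPM in siNC and 18.2, 17.0 and 14.9 CPM in siZEB1. The lowest siZEB1 library was above the highest siNC library, by less than the siZEB1 libraries differed among themselves. The mean rose from 12.6 ± 0.847 CPM (SD, n = 3) to 16.7 ± 1.66 CPM (SD, n = 3), a log2 fold change of 0.40 (SE 0.10, edgeR adjusted p = 0.00438). PDGFC (chromosome 4 from 156760454 to 156971394, minus strand) codes for a chain that is secreted with a CUB domain and must be cleaved before it acts on PDGFRA. It was at 6.02, 5.09 and 5.03 CPM in siNC and at 2.44, 4.11 and 4.18 CPM in siZEB1. The groups did not overlap, and the first siZEB1 library was well below the other two. The mean went from 5.38 ± 0.554 CPM (SD, n = 3) to 3.58 ± 0.987 CPM (SD, n = 3), a log2 fold change of -0.59 (SE 0.19, edgeR adjusted p = 0.0173). The call of PDGFC was lost without siNC replicate 1, where the log2 fold change was -0.50 (adjusted p = 0.0669), and without siZEB1 replicate 1, where it was -0.38 (adjusted p = 0.108).

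ANGPTL4 (chromosome 19 from 8363289 to 8374373, plus strand), an inhibitor of lipoprotein lipase that is induced by fatty acids and by low oxygen, fell. Its level was 19.3, 24.5 and 26.2 CPM in siNC and 14.5, 14.2 and 12.6 CPM in siZEB1. All siZEB1 libraries were below all siNC libraries, and siNC replicate 1 was the lowest of its group. The mean went from 23.3 ± 3.60 CPM (SD, n = 3) to 13.8 ± 1.01 CPM (SD, n = 3), a log2 fold change of -0.75 (SE 0.11, edgeR adjusted p = 4.26e-05). ANGPT2 (chromosome 8 from 6499651 to 6563409, minus strand), a ligand made mainly by endothelial cells, had 15, 17 and 13 reads in siNC and 8, 14 and 20 reads in siZEB1. The siZEB1 libraries lay on both sides of the siNC libraries. Its log2 fold change was 0.037 with a 95% confidence interval from -0.75 to 0.83 (edgeR adjusted p = 0.948), so a change within that interval was not detectable at this depth.

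**Figure D2:**
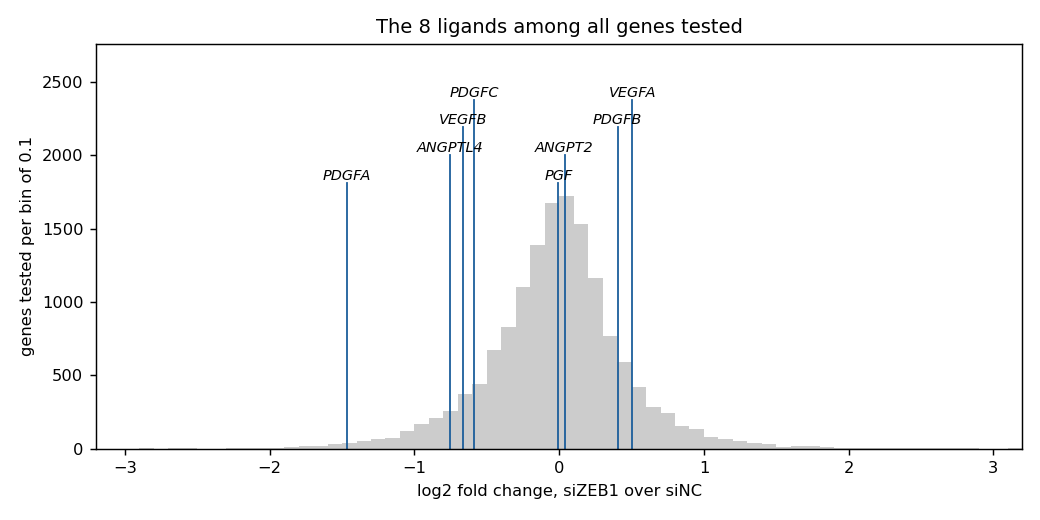
Histogram of the log2 fold change of siZEB1 over siNC for the 14996 genes tested (vertical axis, genes per bin of 0.1), with a line at the value of each of the 8 ligands. PDGFA at -1.47 lies in the left tail, VEGFA at 0.51 and PDGFB at 0.40 on the right shoulder, and PGF and ANGPT2 near 0.

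The size of each change was placed among all genes tested. The absolute log2 fold change was larger than that of 88.4% of genes for ANGPTL4, 84.7% for VEGFB, 81.4% for PDGFC, 76.6% for VEGFA and 68.2% for PDGFB, and than that of 1.1% for PGF and 8.58% for ANGPT2. Thus 1 of the 8 ligands, PDGFA, lay outside the 5th and 95th percentiles of all genes, at log2 fold changes of -0.85 and 0.77. At a fold over 1.5 with an unadjusted p under 0.001, 11.2% of all genes tested passed, and 3 ligands did, PDGFA, VEGFB and ANGPTL4, all lower in siZEB1. Both ligands that rose were under that fold, VEGFA at 1.42 and PDGFB at 1.32.

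Levels of different ligands were compared only after division by transcript length, as CPM per kilobase of the longest protein-coding transcript in GENCODE release 29. In siNC the order on this scale was VEGFB at 20.3 ± 2.03, PDGFA at 16.6 ± 0.995, VEGFA at 16.0 ± 0.283, ANGPTL4 at 12.4 ± 1.92, PDGFB at 3.61 ± 0.242, PDGFC at 1.29 ± 0.133, PGF at 1.22 ± 0.147 and ANGPT2 at 0.132 CPM per kilobase. PDGFA and VEGFA, and PDGFC and PGF, were neighbours that differed by less than their spread. In siZEB1 VEGFA came first at 22.7 ± 0.985 CPM per kilobase, ahead of VEGFB at 12.8 ± 2.29, ANGPTL4 at 7.35 ± 0.538, PDGFA at 6.0 ± 0.445, PDGFB at 4.78 ± 0.474, PGF at 1.22 ± 0.191, PDGFC at 0.858 ± 0.237 and ANGPT2 at 0.135. The place of VEGFA depends on the length used, since its annotated exons together span 14431 bases and its longest protein-coding transcript 3535 bases. Per kilobase of all exons VEGFA was at 3.91 CPM in siNC and 5.56 CPM in siZEB1, behind VEGFB at 18.1 and 11.5 CPM. ANGPTL4 was also at 5.56 CPM in siZEB1 on this length. Other places turned with the length too. On all exons ANGPTL4 at 9.39 came before PDGFA at 9.21 in siNC, and PDGFC was at 0.962 and PGF at 0.394. In siZEB1 PDGFB at 4.45 came before PDGFA at 3.33, and PDGFC at 0.639 before PGF at 0.393.

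The makeup of the VEGF and PDGF ligand transcripts was then given as shares of the family's summed CPM per kilobase of transcript. VEGFA made up 45.7%, 42.0% and 40.3% of the VEGF ligands with a row in the siNC libraries and 60.5%, 57.6% and 67.6% in the siZEB1 libraries, and these groups did not overlap. The mean share of VEGFA was 42.7 ± 2.75% (SD, n = 3) in siNC and 61.9 ± 5.16% (SD, n = 3) in siZEB1, and that of VEGFB went from 54.1 ± 2.66% (SD, n = 3) to 34.8 ± 4.85% (SD, n = 3). The leading VEGF ligand on this scale was therefore VEGFB in siNC and VEGFA in siZEB1. Among the PDGF chains with a row, PDGFA held 77.2 ± 1.44% (SD, n = 3) in siNC and 51.5 ± 2.93% (SD, n = 3) in siZEB1, and PDGFB 16.8 ± 1.27% (SD, n = 3) and 41.1 ± 4.70% (SD, n = 3). The summed PDGF level went from 21.5 ± 0.912 to 11.6 ± 0.373 CPM per kilobase (SD, n = 3 each). The summed VEGF level was 37.5 ± 1.92 CPM per kilobase in siNC and 36.7 ± 1.51 in siZEB1 (SD, n = 3 each). Per kilobase of all annotated exons, the summed VEGF level was 22.5 ± 1.79 CPM in siNC and 17.4 ± 1.86 CPM in siZEB1. With all annotated exons as the length, VEGFA rose from 17.5% to 32.3% of the VEGF ligands and stayed behind VEGFB, whereas PDGFB rose from 24.8% to 52.8% of the PDGF chains and passed PDGFA. The direction of each share was thus the same on both lengths, and the leading ligand in siZEB1 was not. No test was run on these shares, which follow from the values of the single genes.

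**Figure D3:**
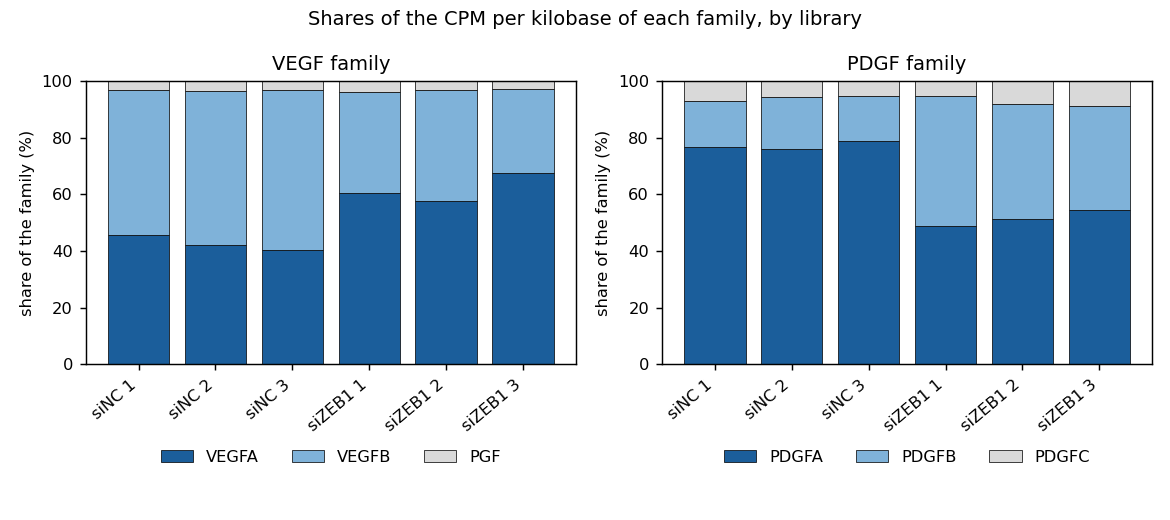
Share in percent of the summed CPM per kilobase of transcript taken by each VEGF ligand (left) and PDGF chain (right) in each library. VEGFA takes 40.3% to 45.7% in siNC and 57.6% to 67.6% in siZEB1, and PDGFB 15.9% to 18.3% in siNC and 36.8% to 46.2% in siZEB1.

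ZEB1 binds E-boxes of the form CACCTG, which reads CAGGTG on the other strand, and the upstream sequences of the ligands were searched for these 6 letters on both strands. The hypoxia response core, ACGTG or GCGTG on either strand, was searched as well because VEGFA and ANGPTL4 are known targets of hypoxia-inducible factors. RefSeq promoter windows on GRCh38.p14, from 250 bases before to 50 bases after each start, were at hand for VEGFB, PGF, PDGFA and ANGPTL4 among the ligands analysed. Of 35116 windows of this length, 20.6% held the E-box and 48.5% the hypoxia core, and the matches are descriptions of letters, not of bound sites. PDGFA had 4 windows, 3 with the E-box and 3 with the core. PGF had 2 windows, 1 with the E-box and both with the core, and VEGFB and ANGPTL4 had 1 window each, with the core and without the E-box.

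The upstream bases of the farthest PDGFA start are shown because PDGFA changed most and because this stretch overlaps no annotated exon of the gene. It spans chr7:520701-520950 on the minus strand, written 5′ to 3′ and ending at the base before the start, with the E-box (first base 159 before the start) and the 3 hypoxia cores (220, 75 and 57 before) in capitals.
PDGFA upstream: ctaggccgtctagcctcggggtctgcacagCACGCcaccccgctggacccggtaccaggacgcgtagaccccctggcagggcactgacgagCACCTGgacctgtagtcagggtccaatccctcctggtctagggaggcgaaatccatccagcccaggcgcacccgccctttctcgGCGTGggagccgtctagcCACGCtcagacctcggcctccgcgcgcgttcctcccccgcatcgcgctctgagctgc
Short stretches of 30 bases around the E-boxes of 2 further PDGFA starts, at chr7:518405-518434 and chr7:520383-520412 on the minus strand, are given beside that of PGF at chr14:74955860-74955889 on the minus strand, since PGF holds the same E-box and was not called. In the second PDGFA stretch the capitals also mark a hypoxia core. The windows of these short stretches overlap annotated exons of their own genes, and the first PDGFA stretch lies inside the annotated gene.
PDGFA start 1: ccgggcctgcttaCAGGTGgctgagcgagg
PDGFA start 2: GCGTGgcagccgcCAGGTGagtgccccaaa
PGF: gatgcccccatccCAGGTGaccgccctgag
The hypoxia cores of VEGFB at chr11:64234510-64234539 and ANGPTL4 at chr19:8363908-8363937, both on the plus strand, are shown because both genes fell and neither window held the E-box. Both windows overlap annotated exons of their own genes, and the ANGPTL4 stretch lies inside the annotated gene.
VEGFB: gccggtggggagcGCGTGtctgggtcacat
ANGPTL4: gggaaagaagagtCACGTctcccacggttc
The E-box letters were thus present before RefSeq starts of a ligand that fell (PDGFA) and of one that was not called (PGF). They were absent from the windows of 2 ligands that fell.

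Receptors and co-receptors were measured in the same cells. Of 9 genes in the list, 8 had a row and 5 were tested. Among the latter 1 was higher, 2 were lower and 2 not called, beside 19% higher and 21.2% lower over all genes tested. The list had a median log2 fold change of -0.12. NRP1, the neuropilin that binds heparin-binding forms of VEGFA, was at 135, 138 and 129 CPM in siNC and at 95.6, 86.8 and 97.9 CPM in siZEB1. The groups were apart, and the log2 fold change was -0.52 (SE 0.066, edgeR adjusted p = 8.36e-06), opposite in sign to that of VEGFA. NRP2, a co-receptor of VEGFC, was at 106 ± 2.58 CPM (SD, n = 3) in siNC and 98.2 ± 4.05 CPM (SD, n = 3) in siZEB1, with a log2 fold change of -0.12 (95% confidence interval -0.25 to 0.02, edgeR adjusted p = 0.150).

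The signalling receptors were low or near 0 in these cells. PDGFRB, the receptor of PDGFB, was at 3.67, 4.29 and 3.99 CPM in siNC and 5.35, 5.10 and 5.54 CPM in siZEB1, a log2 fold change of 0.42 (SE 0.14, edgeR adjusted p = 0.0281). The groups did not overlap, but the call was lost in 6 of 12 alternative analyses, with adjusted p up to 0.0979 without siNC replicate 1. TIE1, an endothelial partner of TEK, had 20, 19 and 18 reads in siNC and 5, 9 and 7 reads in siZEB1, a log2 fold change of -1.29 (SE 0.38, edgeR adjusted p = 0.0115). This call was lost without siZEB1 replicate 1, at an adjusted p of 0.0608. FLT1, the receptor of VEGFA, VEGFB and PGF, had 12 to 17 reads per library in both groups, with a log2 fold change of 0.10 (95% confidence interval -0.64 to 0.84, edgeR adjusted p = 0.848). Below the filter were FLT4 with 9, 10 and 11 reads in siNC and 1, 3 and 4 in siZEB1, PDGFRA with 1, 0 and 2 reads in siNC and none in siZEB1, and TEK with 0 to 5 reads per library. The count of 0 over the siZEB1 libraries allows up to 3 reads of PDGFRA, and KDR, the main endothelial receptor of VEGFA, had no row and was not analysed here.

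**Figure D4:**
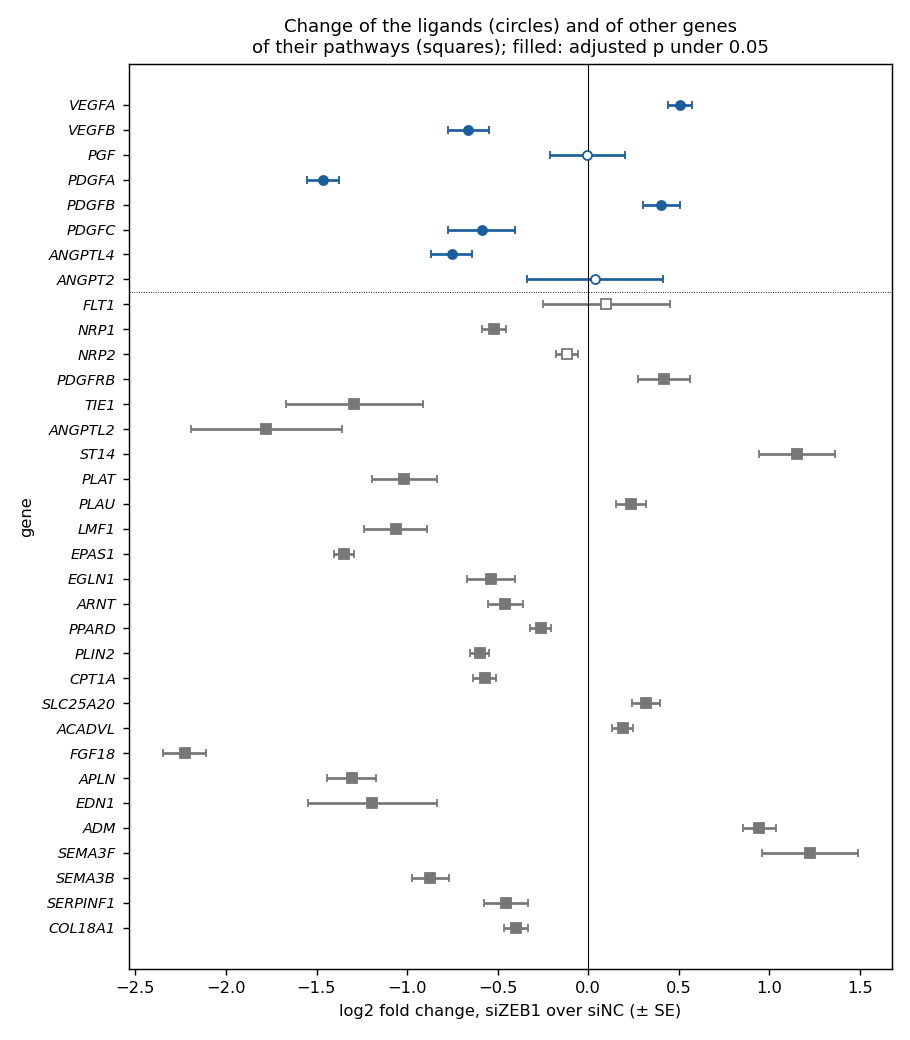
Log2 fold change of siZEB1 over siNC (horizontal axis, bars ± SE) for the 8 ligands (circles) and for named genes of their pathways (squares), filled where the adjusted p was under 0.05. Within the ligands VEGFA and PDGFB lie to the right of 0 and PDGFA at -1.47 lies farthest to the left, and among the pathway genes FGF18 at -2.23 is the lowest.

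Other ligands of the 3 families were almost absent. All 10 had a row but 1 passed the filter, ANGPTL2, a secreted angiopoietin-like protein tied to inflammation, with 19, 38 and 16 reads in siNC and 5, 6 and 8 reads in siZEB1. The groups did not overlap, although siNC replicate 2 was far above the other siNC libraries, and the log2 fold change was -1.78 (SE 0.42, edgeR adjusted p = 0.00262). VEGFD, a lymphatic growth factor, had 0 to 5 reads per library, and ANGPT1, the activating ligand of TEK, had none in siNC and 2 reads in 1 siZEB1 library.

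Of the proteases that process or release these ligands, those called changed in both directions. Of 10 listed genes, 8 had a row and 7 were tested. Of the tested ones 2 were higher, 1 lower and 4 not called, beside 19% higher and 21.2% lower over all genes tested. The median log2 fold change of the list was -0.0090, the value of FURIN, which was not called (edgeR adjusted p = 0.927). FURIN was at 127 ± 8.04 CPM (SD, n = 3) in siNC and 126 ± 3.62 CPM (SD, n = 3) in siZEB1. ST14, the membrane serine protease matriptase, was at 1.22, 1.7 and 1.3 CPM in siNC and at 2.86, 3.33 and 3.24 CPM in siZEB1, a log2 fold change of 1.15 (SE 0.21, edgeR adjusted p = 0.000331). PLAT, the tissue plasminogen activator, which can cleave PDGFC, was at 8.65, 5.63 and 5.97 CPM in siNC and 3.02, 3.48 and 3.50 CPM in siZEB1. It fell by 1.02 on the log2 scale (SE 0.18, edgeR adjusted p = 0.000217), in the same direction as its substrate PDGFC. PLAU, urokinase, had a mean of 17.8 ± 0.114 CPM (SD, n = 3) in siNC and 21.0 ± 1.11 CPM (SD, n = 3) in siZEB1, and its log2 fold change was 0.24 (SE 0.085, edgeR adjusted p = 0.0351). The call of PLAU was lost in 8 of 12 alternative analyses, with adjusted p up to 0.115 without siZEB1 replicate 2, and 31.1% of its exonic bases overlap exons of C10orf55 on the opposite strand.

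The target of ANGPTL4, lipoprotein lipase, was nearly absent, and its maturation factor fell. All 5 genes of the lipoprotein lipase system had a row and 2 were tested. None was called higher, 1 was called lower and 1 was not called, beside 19% higher and 21.2% lower over all genes tested. The median log2 fold change of the system was -0.50. LMF1, which folds lipases in the endoplasmic reticulum, was at 4.19, 4.42 and 5.24 CPM in siNC and at 2.12, 2.34 and 2.14 CPM in siZEB1, a log2 fold change of -1.06 (SE 0.17, edgeR adjusted p = 0.000113). LPL itself did not pass the filter, with a mean of 0.152 CPM in siNC and 0.0704 CPM in siZEB1.

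The regulators of VEGFA and ANGPTL4 by oxygen and fatty acids were all measurable. All 9 listed genes were tested, and 1 was higher, 4 were lower and 4 not called. Over all genes tested, 19% were higher and 21.2% lower. The regulators had a median log2 fold change of -0.28. EPAS1, the HIF-2α subunit, was at 653 ± 30.6 CPM (SD, n = 3) in siNC and at 257 ± 6.50 CPM (SD, n = 3) in siZEB1, a log2 fold change of -1.35 (SE 0.055, edgeR adjusted p = 1.02e-11). ARNT, the shared partner of the HIF α subunits, fell by 0.46 on the log2 scale (SE 0.095, edgeR adjusted p = 0.00097) and EGLN1, the prolyl hydroxylase that marks them for destruction, fell by 0.54 (SE 0.13, edgeR adjusted p = 0.00351). PPARD, a nuclear receptor for fatty acids that acts on ANGPTL4, had a mean of 175 ± 1.03 CPM (SD, n = 3) in siNC and 146 ± 4.93 CPM (SD, n = 3) in siZEB1, at a log2 fold change of -0.26 (SE 0.058, edgeR adjusted p = 0.0016). VHL was the regulator called higher, at a log2 fold change of 0.25 (SE 0.074, edgeR adjusted p = 0.0117). HIF1A, the other main HIF α subunit, was not called, at a log2 fold change of 0.07 (edgeR adjusted p = 0.427).

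Single targets of the PPAR receptors that were called were set beside ANGPTL4, without a count over such targets. PLIN2, which coats lipid droplets, was at 466, 486 and 479 CPM in siNC and at 316, 325 and 304 CPM in siZEB1, with no overlap, and fell by 0.60 on the log2 scale (SE 0.053, edgeR adjusted p = 1.4e-07). CPT1A, which admits fatty acids to mitochondria, fell by 0.57 (SE 0.063, edgeR adjusted p = 1.86e-06). SLC25A20, the carrier that takes acylcarnitines across the inner mitochondrial membrane, rose by 0.32 (SE 0.077, edgeR adjusted p = 0.00345). ACADVL, a mitochondrial acyl-CoA dehydrogenase, had a mean of 289 ± 14.8 CPM (SD, n = 3) in siNC and 330 ± 12.3 CPM (SD, n = 3) in siZEB1, with a log2 fold change of 0.19 (SE 0.058, edgeR adjusted p = 0.0136). The call of ACADVL was lost in 5 of 12 alternative analyses, among them those without siNC replicate 1 (adjusted p = 0.065) or 2 (adjusted p = 0.055) and without siZEB1 replicate 1 (adjusted p = 0.0549) or 2 (adjusted p = 0.0765).

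Secreted angiogenic factors outside the 3 families were also split. Of 12 listed genes, 10 had a row and 7 were tested. There were 2 higher, 3 lower and 2 not called, beside 19% higher and 21.2% lower over all genes tested. The median log2 fold change of these factors was -0.33. FGF18, a fibroblast growth factor, was at 16.2 ± 0.285 CPM (SD, n = 3) in siNC and 3.46 ± 0.294 CPM (SD, n = 3) in siZEB1, a log2 fold change of -2.23 (SE 0.12, edgeR adjusted p = 2.48e-10). APLN, the apelin precursor, an endothelial growth factor, was at 15.5 ± 1.09 CPM (SD, n = 3) in siNC against 6.28 ± 1.44 CPM (SD, n = 3) in siZEB1, with a log2 fold change of -1.30 (SE 0.14, edgeR adjusted p = 8.59e-07). EDN1, the vasoconstrictor endothelin, had 19, 24 and 30 reads in siNC and 12, 8 and 9 reads in siZEB1. Its log2 fold change was -1.19 (SE 0.36, edgeR adjusted p = 0.0132), and the call was lost without siNC replicate 3 (adjusted p = 0.0734) and without siZEB1 replicate 2 (adjusted p = 0.0554). ADM, the vasodilator adrenomedullin, rose as VEGFA did, by 0.94 on the log2 scale (SE 0.091, edgeR adjusted p = 3.84e-07). HDGF, the other factor called higher, was at a log2 fold change of 0.19 (SE 0.057, edgeR adjusted p = 0.0136).

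Secreted inhibitors of vessel growth changed in both directions. Of 8 listed genes, all had a row and 7 were tested, with 2 higher (SEMA3F and THBS1), 4 lower and 1 not called, beside 19% higher and 21.2% lower over all genes tested, and a median log2 fold change of -0.40. THBS1, thrombospondin 1, was at a log2 fold change of 0.37 (SE 0.088, edgeR adjusted p = 0.00292). SEMA3F, a semaphorin that binds NRP2, had 19, 16 and 17 reads in siNC and 35, 42 and 34 reads in siZEB1. Its log2 fold change was 1.22 (SE 0.26, edgeR adjusted p = 0.00136). SEMA3B, a related semaphorin that binds neuropilins, went the other way, with 23.7 ± 2.81 CPM (SD, n = 3) in siNC and 12.9 ± 0.847 CPM (SD, n = 3) in siZEB1, at a log2 fold change of -0.87 (SE 0.10, edgeR adjusted p = 3.25e-06). SERPINF1, pigment epithelium-derived factor, was at -0.45 (SE 0.12, edgeR adjusted p = 0.00699). COL18A1, the collagen from which endostatin is cut, was at -0.40 (SE 0.066, edgeR adjusted p = 0.000134). Of its exonic bases, 16.4% overlap exons of SLC19A1 on the opposite strand. Whether counting used the strand is not given in the sources used here. Among the 8 ligands such overlap was at most 1.30% of exonic bases (VEGFA).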

How the data were processed

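The authors deposited, for each of 6 libraries, whole-number counts of reads per Ensembl gene, not normalized. The submitters' processing notes name Trimmomatic, HISAT2, SAMtools, featureCounts and the build hg38. Versions, annotation and strand setting are not given in the sources used here. Samples were grouped by the treatment in their labels. The ligands, gene lists and tests were chosen with earlier results of these data known.

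Genes were kept by filterByExpr (14996 of 32029), scaled by TMM and tested with the quasi-likelihood test of edgeR 4.0.16 (limma 3.58.1, R 4.3.3), siZEB1 against siNC without covariates, with p-values adjusted by the Benjamini-Hochberg method over the genes kept. SE is the absolute log2 fold change over the square root of F, and 95% intervals use the t quantile of the fit. Code was tested on simulated data. Coordinates, transcript lengths and overlaps are from GENCODE 29, in which 31059 listed genes matched by identifier. Depth was 19040636 to 22357633 reads, and the biological coefficient of variation was 6.58%. Floors cover counting error only.

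Named were the ligands, ZEB1, each receptor tested and, from each further list, up to 4 called genes with the largest absolute change. A few PPAR target genes are not reported here, so no count of that list is given, and the count over all pathway lists leaves them out. HIF1A, VHL, HDGF, LPL, THBS1, VEGFD, ANGPT1, the receptors below the filter and single cell type markers were named after their values were seen. So were LIPG and FURIN. Of these, HIF1A, VHL, HDGF, THBS1, LIPG and FURIN were not followed singly through the alternatives. Alternatives were DESeq2 1.42.0, other size factors, other filters, a replicate block, each library left out in turn and thresholds at a fold of 1.5. Each library was used as a replicate because the study's methods call them biological replicates. Between libraries of 1 group, the chi-square of the counts over its degrees of freedom was 2.26 to 9.53. That is more than sampling noise gives, but it does not by itself show separate cultures.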

Additional observations from a re-analysis of the deposited data

How the results depend on the processing

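VEGFA, VEGFB, PDGFA, PDGFB and ANGPTL4 kept their direction and their call in all 12 alternative analyses, with log2 fold changes of 0.47 to 0.53, -0.79 to -0.53, -1.50 to -1.41, 0.34 to 0.48 and -0.88 to -0.67. With a fold over 1.5 and an unadjusted p under 0.001, 1682 of 14996 genes tested (11.2%) passed in place of 6035 (40.2%). Of them 678 were higher and 1004 lower. This setting gave 0 ligands higher, 3 lower and 11 genes of the pathway lists in place of 28. At the same fold with p under 0.05, 2483 of 14996 genes passed, 1081 higher and 1402 lower. Here 0 ligands were higher, 4 were lower and 14 list genes passed. Counts of ligands and list genes are given to compare settings and were not tested against the share of all genes. VEGFA and PDGFB, the ligands that rose, were past an unadjusted p of 0.05 and below that fold. Leaving out each library in turn gave 4942 to 6239 genes called, 2 ligands higher, 3 to 4 lower and 23 to 28 list genes. Among the named genes, signs turned for 3 that were not called: PGF at 0.0035 by DESeq2, 0.0026 with median-of-ratios size factors and between -0.10 and 0.12 with a library left out, ANGPT2 between -0.30 and 0.31 and FLT1 between -0.059 and 0.23 with a library left out. The low read counts of these genes limit what can be shown. The cause of the other changes was not tested.

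With the replicate number as a block, 4968 genes were called, 2289 higher and 2679 lower, with 2 ligands higher, 4 lower and 22 list genes, and ZEB1 was at -2.85. The numbers were not taken to pair the libraries, because the deviations of same-numbered libraries correlated at -0.052, -0.088 and -0.20.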
